A study of Mus musculus with 2 samples.

Results

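The testis-specific serine kinases are a family of protein kinases, named Tssk1 to Tssk6 in the mouse, whose transcripts are known chiefly from spermatids, the haploid cells that become sperm. Their genes were examined in mouse embryonic stem (ES) cells made to express CTCFL, a relative of the DNA-binding protein CTCF that is normally made in male germ cells. The members were the 6 genes of this name, each taken through the probe set to which the array platform gives that gene symbol alone, and they were 6 of 19938 genes that could be named. Each of the 6 had 1 probe set (10434121 for Tssk1, 10434124 for Tssk2, 10516602 for Tssk3, 10415353 for Tssk4, 10429898 for Tssk5 and 10572251 for Tssk6), and 0 probe sets with several symbols named a member.

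The comparison held 2 Affymetrix Mouse Gene 1.0 ST arrays, 1 per group. Both groups were ES cells that carried a CTCFL_V5_GFP transgene, which encodes CTCFL fused to green fluorescent protein (GFP) and the V5 epitope, and both were grown with leukemia inhibitory factor on gelatin. The transgene lies under a doxycycline-responsive promoter in ES cells that express the rtTA activator from the ROSA26 locus, and transfected cells were selected with G418. Whether the RNA came from 1 clone or several is not stated. The induced cells received doxycycline for 3 days and were sorted for GFP, whereas the non-induced cells received none and were not sorted, so that CTCFL, doxycycline and sorting cannot be told apart. With 1 array in each group there was no replicate and no test, and the differences below describe these arrays. Higher expression per cell and a larger share of expressing cells also cannot be told apart in such RNA.

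Values are log2 signals, and differences are induced minus non-induced on that scale. A gene was called higher or lower when its difference reached log2 1 and the larger of its values reached the median of all gene values, 6.36, which served as the floor. Signals of different probe sets were not read as relative amounts of transcript, because probe sets respond differently to the same amount of RNA. Signal level served only for the floor and to choose genes of similar signal as a background. The arrays matched their labels at the transgene, with Ctcfl at 9.44 in the induced and 5.99 in the non-induced array. Of the germ cell genes kept as reference, Prss50 differed by 1.32, Stra8, a gene of meiotic entry, by 0.92 and Gal3st1, of the testis glycolipid pathway, by 0.65. Only Prss50 among them reached the floor and was called. Stra8 (5.93 and 5.01) and Gal3st1 (6.13 and 5.48) were below it in both arrays. Both arrays held the defining markers of ES cells. Pou5f1, the central pluripotency factor, was at 11.98 and 11.96 and Nanog at 10.86 and 11.08. Above the floor were 10 of 10 such markers, with 0 called in either direction. Of all genes that reached the floor 0.477% were called higher and 1.79% lower. Of these 10 markers Zfp42 (-0.46), Nanog (-0.22) and Tdgf1 (-0.21) had the lowest differences, and Klf4 (0.24), Dppa5a (0.14) and Pou5f1 (0.02) the highest.

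TSSK proteins act late in spermatogenesis. TSSK1 and TSSK2 associate with the substrate protein TSKS, TSSK4 phosphorylates the sperm tail protein ODF2, and TSSK6 is needed for the chromatin condensation of spermatids and acts with HSP90 and the co-chaperone TSACC. Mice that lack Tssk1 and Tssk2, or Tssk6, are infertile as males. CTCFL itself is found earlier, in spermatogonia and preleptotene spermatocytes, and the question put to the arrays was which genes differ when it is present in ES cells.

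Tssk1 and Tssk2 are adjacent genes on chromosome 16 that are read in the same direction. The 250 bases before their starts are shown because these neighbours differed in opposite directions on the arrays (below). The sequences are those of RefSeq for GRCm38.p6, 5′ to 3′ on the plus strand, and lie at chr16:17893953-17894202 for Tssk1 and chr16:17898387-17898636 for Tssk2. Capitals mark the longest run of bases that both hold.
Tssk1: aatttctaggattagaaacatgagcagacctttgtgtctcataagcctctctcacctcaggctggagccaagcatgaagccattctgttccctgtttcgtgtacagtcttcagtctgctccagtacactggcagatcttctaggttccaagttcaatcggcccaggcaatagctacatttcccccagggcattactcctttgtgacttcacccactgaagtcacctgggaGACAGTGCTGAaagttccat
Tssk2: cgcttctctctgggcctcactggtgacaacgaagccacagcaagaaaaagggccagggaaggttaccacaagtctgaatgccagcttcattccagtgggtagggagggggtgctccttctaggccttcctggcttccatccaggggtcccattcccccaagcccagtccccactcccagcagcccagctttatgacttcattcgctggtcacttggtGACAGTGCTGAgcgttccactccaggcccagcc

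The shared run GACAGTGCTGA has 11 bases and begins 20 bases before the start of Tssk1 and 33 bases before that of Tssk2. It was picked out after the sequences were seen. Among the other 9 pairs of the 5 members with a promoter entry (Tssk1, Tssk2, Tssk3, Tssk4 and Tssk6) the longest shared run was 7 or 8 bases. On either strand GACAGTGCTGA was present in 6 of 32851 mouse promoter windows of 300 bases, or 0.0183%, of which these are 2. Because the run was chosen as the longest of this pair, that share does not show whether the match is unusual. The count to be found for any run of 11 bases was not computed.

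Of the 6 genes Tssk5 showed the only difference of log2 1 or more in the deposited values, and this call depended on the processing. Its signal was 6.41 in induced cells and 5.20 without induction, which is 1.21 higher on the log2 scale, or 2.32-fold. The induced array was thus the one with the high value. The induced value lay only 0.06 above the floor, and the non-induced value lay beneath it. The call was lost when 32 was added on the linear scale, which damps differences between low values and left 0.77. It was also lost after the trend on signal level was removed by lowess, which left 1.07 with the induced signal just below the floor, and at a floor of 7.64 (the 75th percentile), which 0 members reached. Among all 19938 genes this was the 39th highest difference, and among the 51 genes called higher it was in place 16. In these 51 genes, Tssk5 was 1 of 2 whose induced signal was no more than 0.06 above the floor. The share of genes called higher was 0.477% of the 10697 genes that reached the floor in either array, and 1 of the 2 members that reached it was called. Tssk5 reached the floor only through its induced value, so 1 of 2 is not a measure of how often members are higher.

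Tssk5 was also set against genes of similar level. Of 4560 genes with a mean signal within 0.5 of that of Tssk5, 57 were higher by log2 1 or more when no floor was applied, which is 1.25%. Among the 500 genes closest to Tssk5 in mean signal, 95% differed by -0.78 to 0.86 and 0 had as high a difference. These ranges stand in for the missing replicate error and include any genuine differences of those genes. The count of 0 depends on where the 500 genes end. Rab11fip5, which was close to Tssk5 in both arrays (6.33 and 5.09) but outside the 500, differed by 1.24. It was chosen for mention after its value was seen.

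**Figure D1:**
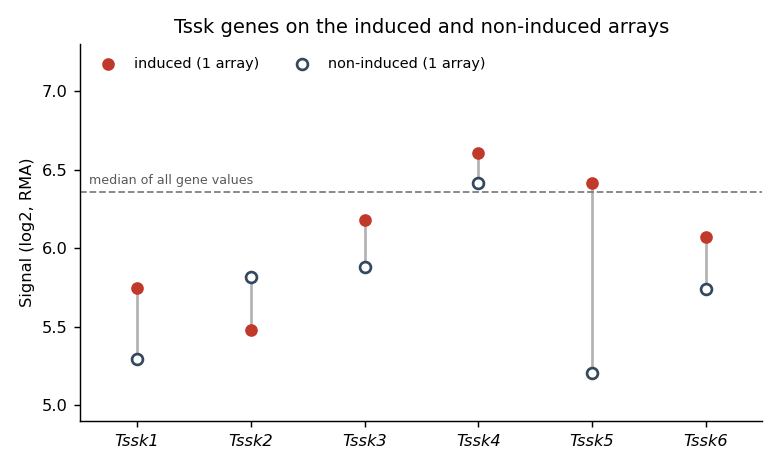
Log2 signal of each Tssk gene in the induced array (filled points) and the non-induced array (open points), 1 array per group, joined by a line. The dashed line is the floor (6.36). Tssk5 has the widest gap (6.41 against 5.20), and Tssk2 is the member with the lower signal in the induced array (5.48 against 5.82).

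The tandem pair, Tssk1 and Tssk2, differed in opposite directions. Tssk1 was at 5.75 in induced and 5.30 in non-induced cells, a difference of 0.45. Tssk2 was at 5.48 and 5.82, a difference of -0.33. Both were below the floor throughout. Of the 500 genes nearest to each in mean signal, 95% differed by -0.75 to 0.80 for Tssk1 and by -0.74 to 0.90 for Tssk2, so that both lay inside the range of genes of their level. Dgcr2, on the other side of Tssk1, differed by 0.09 and Ess2, on the other side of Tssk2, by 0.13.

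Tssk6, the kinase gene of spermatid chromatin condensation, was at 6.07 in induced and 5.74 in non-induced cells, a difference of 0.33. Tssk3 was at 6.18 and 5.88, a difference of 0.30. Tssk4 was at 6.61 and 6.42, above the floor in both arrays, with the smallest difference of the family in size at 0.19. For Tssk6 the central 95% of the 500 genes closest in mean signal ran from -0.58 to 0.78, for Tssk3 from -0.88 to 0.89 and for Tssk4 from -0.64 to 0.84. None of these 3 genes was outside the range of its level.

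As a family, 5 of 6 genes were above 0 and 1 was below. The share above 0 was 51.4% among all genes. This share covers every signal level, and it was not computed for genes of the members' own level. Removal of the trend on signal level by lowess lowered all 6 differences, that of Tssk1 from 0.45 to 0.32 and that of Tssk6 from 0.33 to 0.19. The values over all genes are therefore too low a background for the members. The median difference of the members was 0.32, against 0.01 for all genes, and it was 0.30 over the 5 members other than Tssk5. It was 0.18 after lowess, 0.19 after repeated quantile normalization and 0.21 with 32 added, against 0.00, 0.02 and 0.01 for all genes in the same order. The middle 50% of all genes differed by -0.24 to 0.26. Tssk1, Tssk3, Tssk5 and Tssk6 were above this range, Tssk2 was below it and Tssk4 was inside it. Only Tssk4 and Tssk5 reached the floor in either array, and 0 members were called lower, against 1.79% of genes that reached the floor. The median signal of all genes was itself 0.10 higher in the induced array (6.40 against 6.30). After this shift was removed the 6 differences ran from -0.43 for Tssk2 to 1.11 for Tssk5. The 5 above 0 stayed so, since the shift was smaller than each of the 6 differences in size.

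**Figure D2:**
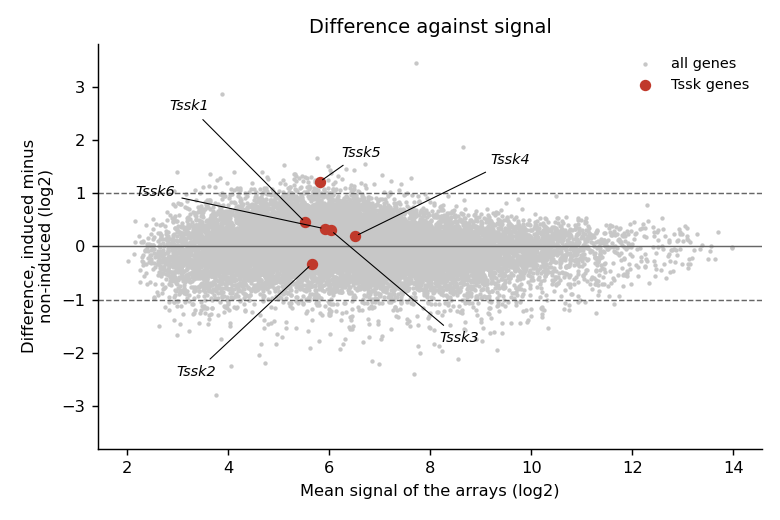
Difference, induced minus non-induced (log2), plotted by average log2 signal, for 19938 genes (grey) and the 6 Tssk genes (red). Dashed lines mark differences of log2 1 each way. Tssk5, at 1.21, lies above the upper line, while the other members lie between -0.33 and 0.45, within the cloud of genes of their level.

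Partners and substrates of the kinases were next compared. Of 12 genes for partners and substrates 11 could be named on the array, without Hsp90ab1, of which 4 were above 0 and 7 below, with a median of -0.07. Of the 8 that reached the floor 0 were called higher and 0 lower, against 0.477% and 1.79% of all genes that reached it. Tsks, which encodes the substrate of TSSK1 and TSSK2, was at 6.83 and 6.51, a difference of 0.31, the highest of the list, followed by Izumo1, the sperm protein of egg adhesion (0.17), and Odf2 (0.15). Tsacc, the co-chaperone gene of TSSK6, was at 7.20 and 7.38, a difference of -0.17. The lowest were Crem, a transcriptional regulator of spermatid genes, at 5.84 and 6.30 (-0.47) and Pdpk1, an upstream kinase gene (-0.28).

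Other kinases known from germ cells went both ways. Of 14 listed 13 could be named, without Nek1, with 7 above 0, 6 below and a median of 0.05. Of the 8 that reached the floor 0 were called higher and 1, Stk31, lower, against 0.477% and 1.79% of all genes that reached it. Stk31, a germ cell kinase gene with a Tudor domain, was at 5.35 in induced and 6.64 in non-induced cells, a difference of -1.30, or 2.46-fold lower, which is opposite in sign to Tssk5. Tex14, required for the intercellular bridges of germ cells, was at -0.29 and Stk33 at -0.25, whereas Hipk4 (0.43), Tesk1 (0.42) and Camk4 (0.29) had the highest differences.

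Because the kinases are transcripts of spermatids, markers of that cell type were placed beside them. Of 22 spermatid markers 15 were above 0 and 7 below, with a median of 0.17, 0 were called in either direction, and 19 were below the floor in both arrays. Of all genes that reached the floor 0.477% were called higher and 1.79% lower. Over all genes, at every signal level, 51.4% were above 0 and the median was 0.01. The same background for genes as low in signal as the markers was not computed. Removal of the trend on signal level by lowess lowered the differences of the Tssk genes, which are also low in signal. The values over all genes may therefore be too low a background for the markers. Their signals ran from 3.65 to 6.88 in the induced and from 3.61 to 6.51 in the non-induced array. The defining protamine gene Prm1 was at 6.10 and 5.71 and the transition protein gene Tnp1 at 5.73 and 5.60, both below the floor. The highest differences were those of Tekt2, a tektin gene of the sperm flagellum (0.80), Odf1, of the outer dense fibers (0.63), and the spermatid linker histone gene H1f7 (0.55). The lowest were Spata18 (-0.34), the sperm calcium channel gene Catsper2 (-0.26) and the acrosome gene Spaca1 (-0.25). The part of these markers in the differences of the Tssk genes was not tested.

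**Figure D3:**
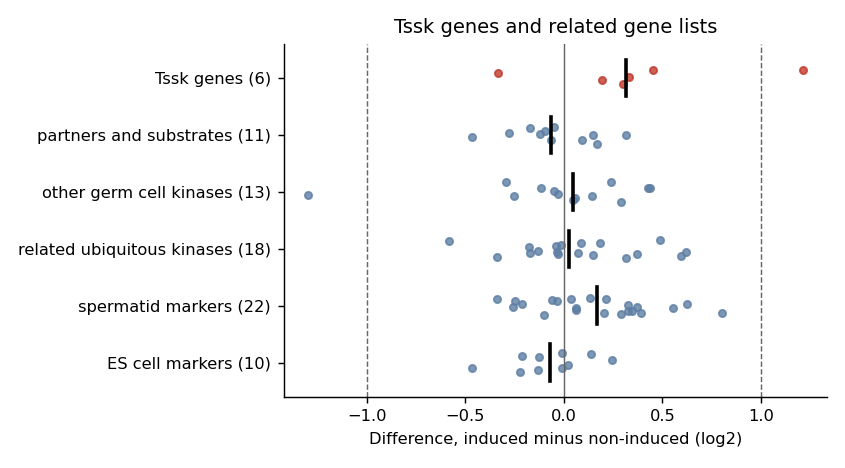
Difference, induced minus non-induced (log2), of each measured gene in the Tssk family and in 5 gene lists (number of genes in brackets), with 1 point per gene and a bar at the median. The median is 0.32 for the Tssk genes, 0.17 for spermatid markers and -0.07 for partners and substrates. Over all genes of every signal level, which are not drawn, it is 0.01. Tssk5 (1.21) and Stk31 (-1.30) are the points past the dashed lines at log2 1.

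The genes that flank the members in the annotation of GRCm38.p6 were then examined, with 3 measured genes taken on each side. Of these 30 different genes 26 reached the floor, 16 were above 0 and their median difference was 0.06. Over all genes 51.4% were above 0 and the median was 0.01. Tssk5, on chromosome 15, lies between Hgh1 and Mroh1. Hgh1 was at 7.54 in induced and 7.83 in non-induced cells, a difference of -0.29, and Mroh1 at 6.99 and 6.79, a difference of 0.19. The difference of Tssk5 was therefore not shared by the genes at its sides. Over all members the 10 adjacent genes outside the family differed by -0.29 to 0.68, and 6 of them were above 0.

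In 3 members the annotation places part of another gene over the kinase gene, on the opposite strand. Tssk6 on chromosome 8 overlaps Ndufa13, a gene of respiratory complex I (0.00), and its other neighbor Gatad2a, a gene of the NuRD chromatin complex, differed by 0.02. Tssk4 on chromosome 14 overlaps Tm9sf1 (0.28), with Mdp1 (0.68) on its other side. Tssk3 on chromosome 4 overlaps Fam229a, which was not named on the array, and its nearest measured neighbors were Bsdc1 (-0.02) and Marcksl1 (-0.28). Whether the probe sets of these members also read the overlapping genes was not examined. Among the 30 flanking genes 1 was called higher and 0 lower, against 0.477% and 1.79% of all genes that reached the floor. The gene called higher was Rec8, the meiotic cohesin gene, the third measured gene beside Tssk4, at 7.73 and 6.38 (1.35). Rec8 was chosen for mention after its value was seen.

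**Figure D4:**
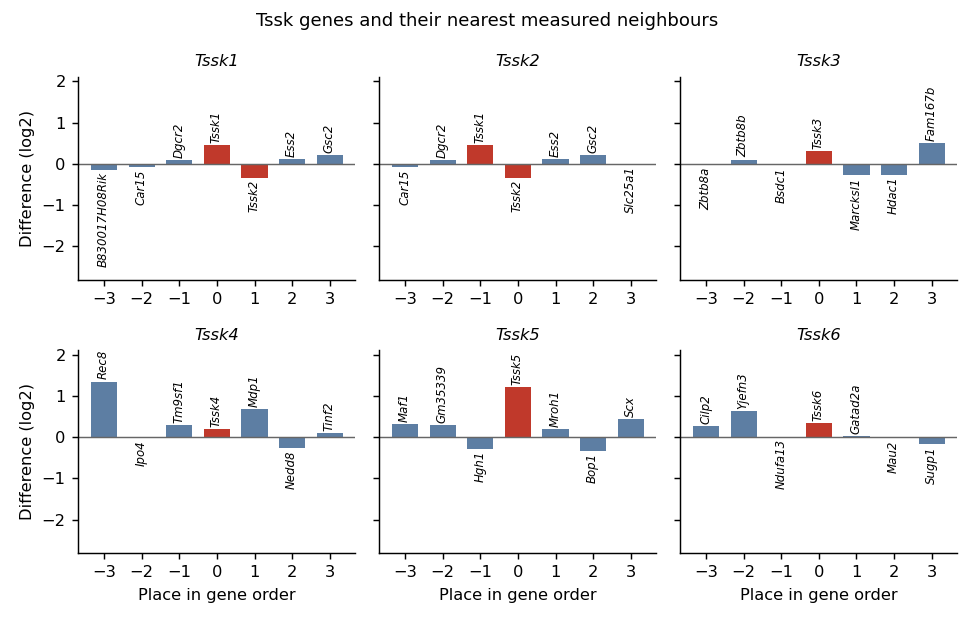
Difference, induced minus non-induced (log2), of each Tssk gene (place 0) and of the 3 nearest measured genes on each side in chromosome order. Red bars are Tssk genes and blue bars other genes. Tssk5 (1.21) stands above both of its neighbors, Hgh1 (-0.29) and Mroh1 (0.19), and Rec8 (1.35) is the highest bar of the panel for Tssk4.

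Promoter composition was described for the 5 members with an entry, over 250 bases before and 50 after the start. The ratio of observed to expected CpG was 0.105 for Tssk1, 0.228 for Tssk2, 0.380 for Tssk3, 0.143 for Tssk4 and 0.515 for Tssk6, against a median of 0.384 over 32851 windows. The CpG count was 2 for Tssk1, 6 for Tssk2, 10 for Tssk3, 2 for Tssk4 and 14 for Tssk6, against a median of 7. Tssk6 was above and Tssk1, Tssk2 and Tssk4 were below the median by both measures. The letters TGACG, the core of cyclic AMP response elements, occurred in 1 member, before the start of Tssk6, and are found in 20.8% of all windows on either strand. The full site TGACGTCA (1.79% of windows), the E-box CACGTG (7.15%), the E2F-like GCGGGAA (4.6%), the TATA box TATAAA (13.6%) and the CTCF core consensus (0.557%) were found in 0 of the 5. TGACG is contained in TGACGTCA. The same scan found the CTCF core consensus 0 times in the windows of Prss50 and Stra8. The paper reports that CTCFL and CTCF bind the promoters of these genes. Absence of the consensus from a window therefore does not show that a promoter lacks a binding site. The motif matches describe letters in the windows only.

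**Figure D5:**
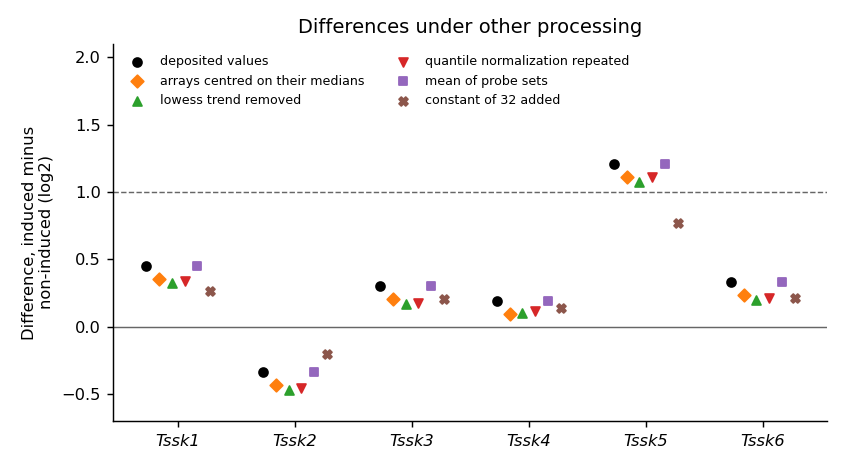
Difference, induced minus non-induced (log2), of each Tssk gene from the deposited values (black circles) and under 5 other ways of processing them. The dashed line is log2 1. Tssk5 ranges from 0.77 to 1.21 and Tssk2 from -0.47 to -0.20, and the other members lie between 0.09 and 0.45.

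Under the 5 other ways of processing Tssk1 ran from 0.27 to 0.45, Tssk3 from 0.17 to 0.30, Tssk4 from 0.09 to 0.19 and Tssk6 from 0.19 to 0.33. Only lowess and repeated quantile normalization could have changed a sign. Under each of them the 6 genes had the direction of the deposited values. Centring moved every difference by 0.10, less than the smallest in size (0.19), and so could not.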

How the data were processed

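RNA (300 ng per array) of 1 induced and 1 non-induced sample had been hybridized to the arrays. The deposited values are log2 signals that the authors background-corrected, quantile normalized and summarized with RMA. The sources used here state no software version, annotation or build. Of 35557 probe sets 21789 had 1 platform gene symbol, giving 19938 genes. Of these probe sets 21698 matched a RefSeq gene (GRCm38.p6) and took its symbol, and the rest kept the platform symbol. For 999 genes with several probe sets, the probe set of highest mean signal was taken. Probe sets with several symbols (1621) or none (12147) were not used. Arrays give no counting error, and their number limits the precision.

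The members, gene lists and the size and floor of calls were chosen with earlier results of these data known. The genes named were all members and, per list, called genes and the 3 with the widest difference each way, the adjacent measured genes, and Ctcfl, Prss50, Stra8 and Gal3st1 as reference. Of the 5 genes nearest to Tssk5 in signal, also in the rule, only Rab11fip5 was named. The rest were left out because they compare levels of different probe sets. Prm1 and Tnp1, as defining spermatid markers, and Rec8 are outside that rule and were chosen after their values were seen. Coordinates are given only for RefSeq promoter sequences. The alternatives were centring, lowess (fraction 0.3), repeated quantile normalization, the mean of probe sets, a constant of 32, a size of log2 0.58, and no floor or one at the 75th percentile. The calling step was tested on simulated data, with shifts wider than the calling size in genes whose mean signal was above the floor. That test does not cover genes such as Tssk5, whose mean signal is below the floor. Python 3.11.15, numpy 2.4.6, pandas 2.3.3, statsmodels 0.14.6 and matplotlib 3.10.9 were used.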

Additional observations from a re-analysis of the deposited data

How the results depend on the processing

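Of 30 member differences under 5 alternatives, 29 moved by less than 0.25, which is 0.5 times the interquartile range of all differences and was used in place of the missing replicate spread. Taking the mean of probe sets cannot move a member, since each has 1, and an added constant cannot turn a sign. Centring moves every difference by 0.10, less than 0.25 and less than the smallest in size (0.19), so it could not turn a sign either. The count of 29 therefore includes outcomes that were fixed in advance. After lowess and after repeated quantile normalization each of the 6 members kept the sign of the deposited values. The 1 difference that moved by more than 0.25 was that of Tssk5 with the constant of 32 (0.77). The median difference of the members, 0.32, was 0.22 after centring, 0.18 after lowess, 0.19 after repeated quantile normalization and 0.21 with the constant. The count of members called higher was 1 and became 0 after lowess, 0 with the constant of 32 and 0 with the floor at the 75th percentile, for which no member was eligible. Under lowess the induced signal of Tssk5 was 6.34 against a floor of 6.35. The count was 1 after centring and after repeated quantile normalization. It was also 1 with the mean of probe sets, at the smaller size (log2 0.58) and with no floor, which could not remove the call. The mean of probe sets leaves Tssk5 unchanged and had a lower floor (6.33), and the smaller size and absent floor loosen the rule. The count called lower was 0 throughout. Over all genes the number called higher was 51, and 25 after centring, 35 after lowess and 45 after repeated quantile normalization. It was 52 with the mean of probe sets, 10 with the constant, 568 at log2 0.58, 141 without a floor and 8 with the stricter floor. The genes eligible numbered 10697 in the deposited values, 19938 without a floor and 5423 with the stricter floor. The number called lower was 191, and 268 after centring, 173 after lowess and 160 after repeated quantile normalization. It was 192 with the mean of probe sets, 108 with the constant, 904 at log2 0.58, 297 without a floor and 134 with the stricter floor. No paired analysis was possible because each group had 1 array. As limits, the arrays had no replicates, and 4 of 6 members were below the floor in both arrays, where signal over background limits what a difference can show.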

Other observations

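Ubiquitous kinases of the same branch, the AMP-activated kinase relatives and the checkpoint kinases, were placed beside the family. Of 18 genes, of which 18 were named on the array, 9 were above 0 and 9 below, with a median difference of 0.03. Of the 16 that reached the floor 0 were called higher and 0 lower, against 0.477% and 1.79% of all such genes. The highest differences were those of Nuak2 at 6.75 in the induced and 6.14 in the non-induced array (0.62), Nuak1 at 5.86 and 5.26 (0.60) and Prkaa2, a catalytic subunit of AMP-activated kinase, at 6.54 and 6.05 (0.49). The lowest were the checkpoint kinase genes Chek2 at 7.65 and 8.23 (-0.58) and Chek1 at 9.40 and 9.74 (-0.34), followed by Melk (-0.18).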
